A study of Homo sapiens with 3 samples.

Results

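The genes described here are 10 receptor tyrosine kinases, EGFR, ERBB2, ERBB3, MET, AXL, PDGFRA, PDGFRB, FGFR1, IGF1R and EPHA2. They were taken by symbol from the 22464 genes of the deposited table, and each of the 10 was found once. The mRNA levels come from RNA-seq libraries of SK-Hep-1, an established human cell line from a liver adenocarcinoma, to ask how gene expression depends on the long noncoding RNA LINC01089. The sh1089-1 and sh1089-2 lines each carried a lentiviral short hairpin RNA against LINC01089, and the shNC line carried a negative control hairpin. All 3 lines were stably infected, and each group is 1 library, so no difference has a replicate check and no p-value is given.

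Receptor tyrosine kinases span the cell membrane, bind a ligand outside the cell and, once paired, phosphorylate each other and recruit adaptors that feed the RAS-ERK and PI3K-AKT routes. EGFR, ERBB2 and ERBB3 form mixed pairs: ERBB2 has no known ligand of its own, and ERBB3 binds neuregulins but has little kinase activity. MET is the receptor of hepatocyte growth factor and AXL that of GAS6, both known for cell movement and drug resistance in liver cancer, and EPHA2 binds ephrin-A ligands on neighbouring cells. The PDGF receptors mark mesenchymal and perivascular cells, and FGFR1 and IGF1R carry growth and survival signals.

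The library totals, worked out from the steps between FPKM values, were 9528312 reads in sh1089-1, 8359832 in sh1089-2 and 10698480 in shNC. FPKM scales the fragments of a gene by its length and by the size of the library. Of 5 listed liver parenchyma markers only SERPINA1 averaged 1 FPKM or more. None of 5 endothelial or 3 blood cell markers did, against 4 of 6 mesenchymal markers, PDGFRB and VIM among them. Of 5 epithelial markers, KRT8 and KRT18 did, while EPCAM, CDH1 and ESRP1 lay below 1 FPKM. The library sums ran from 5.19 to 8.36 FPKM over the liver markers, from 0.149 to 0.414 over the endothelial, from 0.411 to 0.774 over the blood cell, from 935 to 1457 over the mesenchymal and from 1357 to 2132 over the epithelial ones. The last 2 sums were lowest in shNC. VIM made up nearly all of the mesenchymal sum, and the other 5 mesenchymal markers summed to 9.39 FPKM in sh1089-1, 11.9 FPKM in sh1089-2 and 12.9 FPKM in shNC, with shNC the highest. The part of these markers in the differences below was not tested. The level of LINC01089 itself was not analysed here, nor were the liver marker ALB and the blood cell marker CD3E. In bulk libraries such as these, fewer cells of a kind and less RNA per cell cannot be told apart.

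The promoters of the most abundant receptor (AXL), of the pair with the largest mean differences among those with an entry (IGF1R and EGFR) and of the one receptor near 0 (PDGFRA) are given here. They are the 250 bases before the first RefSeq start, on GRCh38.p14, all on the plus strand. RefSeq and GENCODE starts differ: the PDGFRA window lies mostly, and the AXL window by its last bases, inside the gene as GENCODE bounds it below. The AXL window is chr19:41218973-41219222, the EGFR window chr7:55018767-55019016, the IGF1R window chr15:98648289-98648538 and the PDGFRA window chr4:54229043-54229292. Capitals mark GC boxes, the letters GGGCGG or, on the other strand, CCGCCC.
AXL: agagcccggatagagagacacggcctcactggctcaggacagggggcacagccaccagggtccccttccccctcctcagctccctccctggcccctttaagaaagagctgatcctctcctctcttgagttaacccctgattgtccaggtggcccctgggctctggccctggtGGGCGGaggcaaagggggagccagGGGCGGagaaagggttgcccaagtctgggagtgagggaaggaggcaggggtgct
EGFR: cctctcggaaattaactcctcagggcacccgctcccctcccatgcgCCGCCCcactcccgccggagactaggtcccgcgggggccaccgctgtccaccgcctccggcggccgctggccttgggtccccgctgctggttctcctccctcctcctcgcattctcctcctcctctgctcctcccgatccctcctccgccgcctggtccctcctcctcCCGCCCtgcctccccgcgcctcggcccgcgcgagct
IGF1R: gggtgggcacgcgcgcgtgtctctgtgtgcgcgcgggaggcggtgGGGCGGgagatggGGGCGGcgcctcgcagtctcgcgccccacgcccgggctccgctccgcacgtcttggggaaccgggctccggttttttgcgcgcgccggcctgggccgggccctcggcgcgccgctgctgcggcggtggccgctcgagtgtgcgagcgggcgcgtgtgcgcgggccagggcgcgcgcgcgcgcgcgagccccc
PDGFRA: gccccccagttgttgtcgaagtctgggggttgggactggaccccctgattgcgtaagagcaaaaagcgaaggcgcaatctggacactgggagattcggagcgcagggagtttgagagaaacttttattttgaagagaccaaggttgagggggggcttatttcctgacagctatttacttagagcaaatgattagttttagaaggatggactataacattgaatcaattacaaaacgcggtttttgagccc

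The AXL, EGFR and IGF1R windows each held 2 GC boxes and the PDGFRA window 0, where 42.6% of all 35116 promoter windows held at least 1. Neither TATAAA nor the AP-1 motif TGACTCA, on either strand, was found in these 4 windows; 10.7% and 4.2% of all windows hold them. The G and C share was 64.4% before AXL, 73.6% before EGFR, 81.2% before IGF1R and 46.8% before PDGFRA, with a median of 58.0% over all windows. The IGF1R window held 48 CpG pairs, the EGFR window 25, the PDGFRA window 8 and the AXL window 4, against a median of 11. RefSeq gives AXL, EGFR and PDGFRA a further start each. The window before the second AXL start held 0 GC boxes, with a G and C share of 54.4% and 13 CpG pairs. That before the second PDGFRA start held 2 GC boxes, and that before the second EGFR start held 2 TATAAA and 2 AP-1 motifs and 0 GC boxes. Of the 10 receptors, 8 had an entry, ERBB3 and FGFR1 being the others, and the FPKM values do not tell which start was used.

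AXL and EPHA2 were by far the most abundant of the 10. AXL (chromosome 19, 41219203 to 41261766, plus strand of GRCh38) had 149 FPKM in sh1089-1, 158 FPKM in sh1089-2 and 134 FPKM in shNC. EPHA2 (chromosome 1, 16124337 to 16156087, minus strand) had 115, 111 and 113 FPKM in the same libraries. Their mean levels stood above 97.8% and 97.1% of the 11198 genes with a mean of at least 1 FPKM over the 3 libraries, which are the genes compared throughout and called tested genes here. MET (chromosome 7, 116672390 to 116798386, plus strand) followed with 29.4 FPKM in sh1089-1, 31.4 FPKM in sh1089-2 and 33.1 FPKM in shNC.

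ERBB2 (chromosome 17, 39687914 to 39730426, plus strand) had 14.0, 14.7 and 13.2 FPKM in sh1089-1, sh1089-2 and shNC. EGFR (chromosome 7, 55019021 to 55211628, plus strand) had 9.91, 12.6 and 8.25 FPKM. ERBB3 (chromosome 12, 56076799 to 56103505, plus strand) had 5.57, 9.58 and 8.74 FPKM. ERBB2 was thus the highest of the family in each library, EGFR was second in both hairpin libraries, and ERBB3 was slightly above EGFR in shNC. FGFR1 (chromosome 8, 38400215 to 38468834, minus strand) had 5.62 FPKM in sh1089-1, 7.28 FPKM in sh1089-2 and 6.33 FPKM in shNC. IGF1R (chromosome 15, 98648539 to 98964530, plus strand) had 3.21, 3.54 and 5.002 FPKM, with shNC the highest.

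PDGFRB (chromosome 5, 150113837 to 150155872, minus strand) had 1.26, 1.94 and 2.03 FPKM in sh1089-1, sh1089-2 and shNC, on 86, 116 and 155 reads. PDGFRA (chromosome 4, 54229097 to 54298247, plus strand) rested on 4 reads in sh1089-1, 0 in sh1089-2 and 1 in shNC. It is the one receptor below the filter. A count of 0 in sh1089-2 allows up to 0.359 RPM (3 reads of the total, scaled to library size), and no difference was detectable at this depth. Another annotated gene, AC058822.1, shares 1533 exon bases with PDGFRA on the same strand, and how reads from shared bases were assigned is not stated. The order of the means was AXL, EPHA2, MET, ERBB2, EGFR, ERBB3, FGFR1, IGF1R, PDGFRB and PDGFRA. Over the 3 libraries, the ranges of EGFR and ERBB3 overlapped, as did those of ERBB3 and FGFR1, and no other neighbours in the order did. The lengths behind these values are summed exons, from 4141 bases for EPHA2 to 13941 for IGF1R, not the length of the isoform in use.

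**Figure D1:**
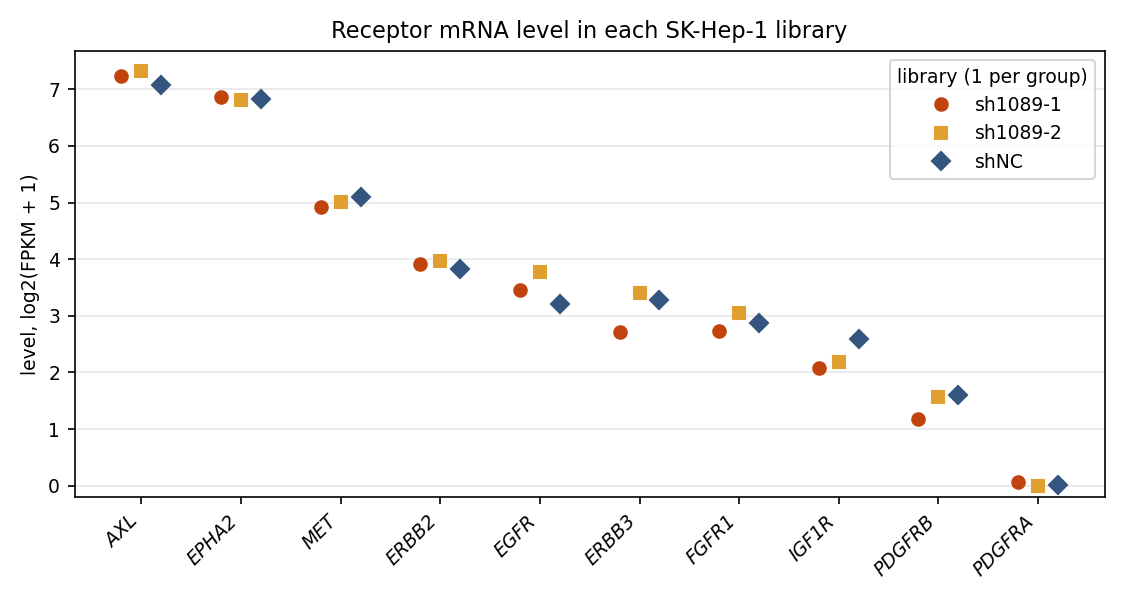
Level of each receptor as log2(FPKM + 1) in the sh1089-1, sh1089-2 and shNC libraries, 1 point per library, ordered by mean level. AXL and EPHA2 lie above all others in each library, the ERBB3 point of sh1089-1 lies below those of sh1089-2 and shNC, and PDGFRA lies near 0.

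The 10 receptors made up most of the receptor tyrosine kinase mRNA. Together with 47 other kinases of the class listed in the table they summed to 424 FPKM in sh1089-1, 452 FPKM in sh1089-2 and 421 FPKM in shNC. The 10 took 78.5%, 77.4% and 77.0% of those sums. AXL took 35.1% in sh1089-1, 35.0% in sh1089-2 and 31.9% in shNC, and EPHA2 27.1%, 24.5% and 26.9%. MET took 6.92%, 6.93% and 7.86%. The sum of EGFR, ERBB2 and ERBB3 was 29.5 FPKM in sh1089-1, 36.9 FPKM in sh1089-2 and 30.2 FPKM in shNC. Of all 57 kinases, 25, 25 and 24 reached 1 FPKM in the 3 libraries.

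**Figure D2:**
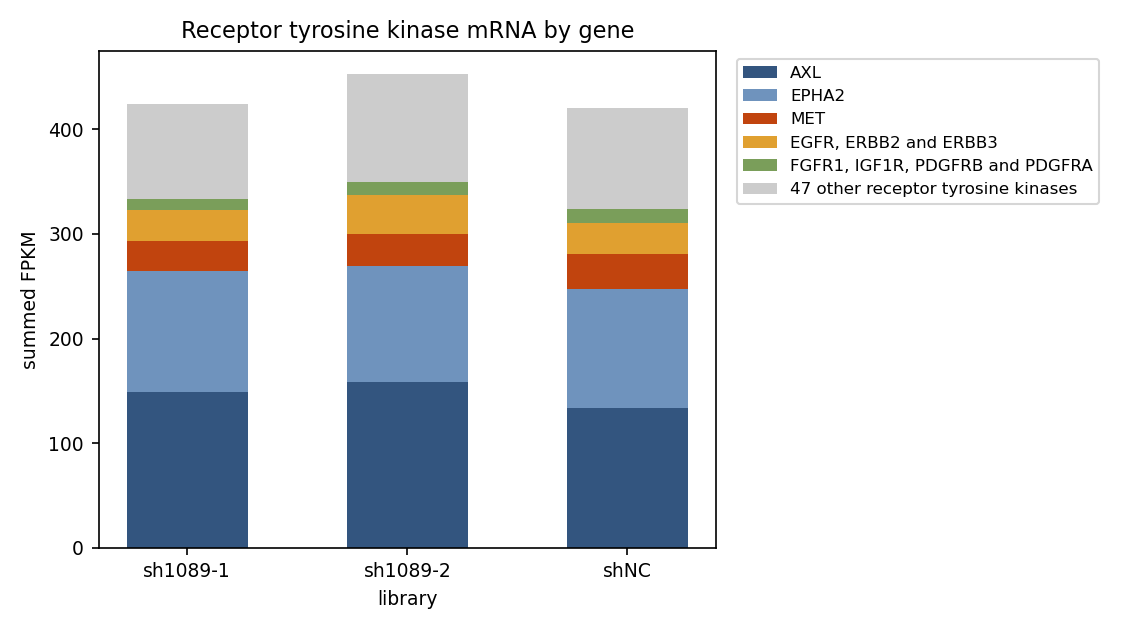
Summed FPKM of 57 receptor tyrosine kinase genes in each library (sh1089-1, sh1089-2, shNC), stacked by gene or gene group, with the axis from 0. AXL and EPHA2 take the largest shares of each bar, and the totals lie between 421 and 452 FPKM.

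The first comparison, sh1089-1 against shNC, asked which receptors differ with the first hairpin. ERBB3, IGF1R and PDGFRB stood lower in sh1089-1, EGFR and AXL slightly higher, and no receptor passed 1.5-fold on the scale of log2(FPKM + 1). By plain FPKM ratios, ERBB3 was 1.57-fold lower in sh1089-1 than in shNC (95% counting interval 1.40 to 1.76, on 480 and 845 reads). IGF1R was 1.56-fold lower (1.38 to 1.76, on 426 and 746 reads), and PDGFRB 1.60-fold lower (1.23 to 2.11). The intervals are exact binomial ones on recovered reads and cover counting error only. MET was 1.13-fold lower (1.06 to 1.19) and FGFR1 1.13-fold lower (1.022 to 1.24). EGFR was 1.201-fold higher (1.11 to 1.30) and AXL 1.11-fold higher (1.08 to 1.15). ERBB2 had a ratio of 1.07 (0.990 to 1.15) and EPHA2 one of 1.018 (0.978 to 1.06), both with intervals that include 1.

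The count of receptors at least 1.5-fold higher in log2(FPKM + 1) was 0 of 9, where 5.27% of the 11198 genes were called, and the count of those lower was 0, where 5.83% were called. ERBB3, at a difference of −0.57, and IGF1R, at −0.51, lay just inside the limit of 0.585. That count depended on the settings. Rescaled to TPM, ERBB3 was at −0.60 and was called lower, but a pseudocount of 1 weighs differently on TPM than on FPKM. Under median-ratio scaling ERBB3 was at −0.54, inside the limit. By plain ratios 3 receptors were lower (ERBB3, IGF1R and PDGFRB), where 8.48% of the 10122 genes that code for protein and rest on at least 100 reads were, and 0 were higher, where 6.6% were. The members' median difference was −0.15 in log2(FPKM + 1), with 4 above 0 and 5 below, and that of all tested genes −0.03. It turned to 0.0255 for the 7 receptors with a mean of at least 5 FPKM and was −0.06 with no filter. Of the tested genes, 6.2% had a lower difference than ERBB3, 7.9% a lower one than IGF1R and 11.8% a lower one than PDGFRB.

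The second comparison, sh1089-2 against the same shNC library, differed in which receptors stood apart. EGFR was 1.53-fold higher in sh1089-2 (1.41 to 1.66, on 1322 and 1106 reads), and IGF1R was 1.42-fold lower (1.25 to 1.60, on 412 and 746 reads). AXL was 1.18-fold higher (1.14 to 1.22), FGFR1 1.15-fold higher (1.05 to 1.26) and ERBB2 1.11-fold higher (1.03 to 1.202). ERBB3 had a ratio of 1.096 (0.992 to 1.21), MET of 0.949 (0.894 to 1.01), PDGFRB of 0.958 (0.746 to 1.23) and EPHA2 of 0.980 (0.939 to 1.022), and all 4 intervals include 1.

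In log2(FPKM + 1), 0 of 9 receptors were called higher, against 4.89% of all tested genes, and 0 lower, against 5.63%. EGFR lay just inside the limit, at 0.56, and 94.7% of tested genes had a lower difference. IGF1R, at −0.40, had 12.2% of genes below it. By plain ratios EGFR was the 1 receptor past 1.5-fold, where 6.07% of protein-coding genes were higher, and 0 were lower, where 7.43% were. The median difference of the receptors was 0.12, with 5 above 0 and 4 below, against −0.04 over all genes, and was 0.05 with no filter. Since both comparisons use the same shNC library, what the hairpin lines have in common and what is peculiar to that 1 control library cannot be told apart. IGF1R was lower, and AXL and EGFR higher, in each hairpin library.

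**Figure D3:**
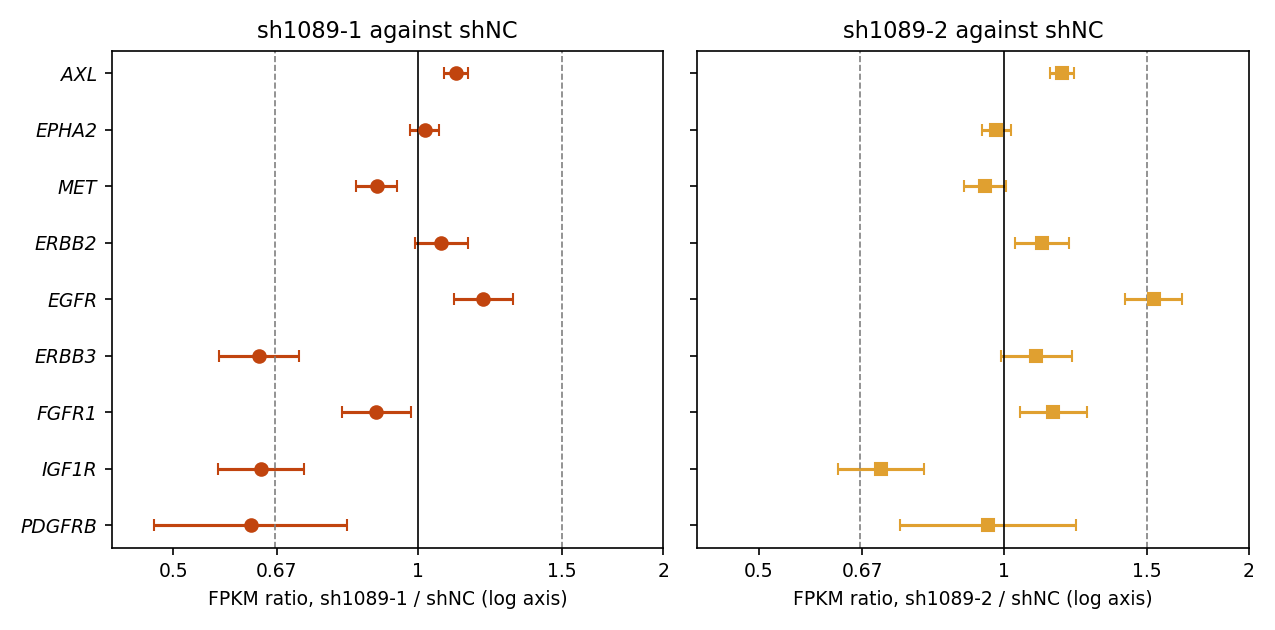
FPKM ratio of the sh1089-1 library (left) and the sh1089-2 library (right) to shNC for the 9 receptors above the filter, on a log axis, with 95% counting intervals and dashed lines at 1.5-fold in each direction. ERBB3, IGF1R and PDGFRB lie past the lower line in sh1089-1, and EGFR lies past the upper line in sh1089-2.

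**Figure D4:**
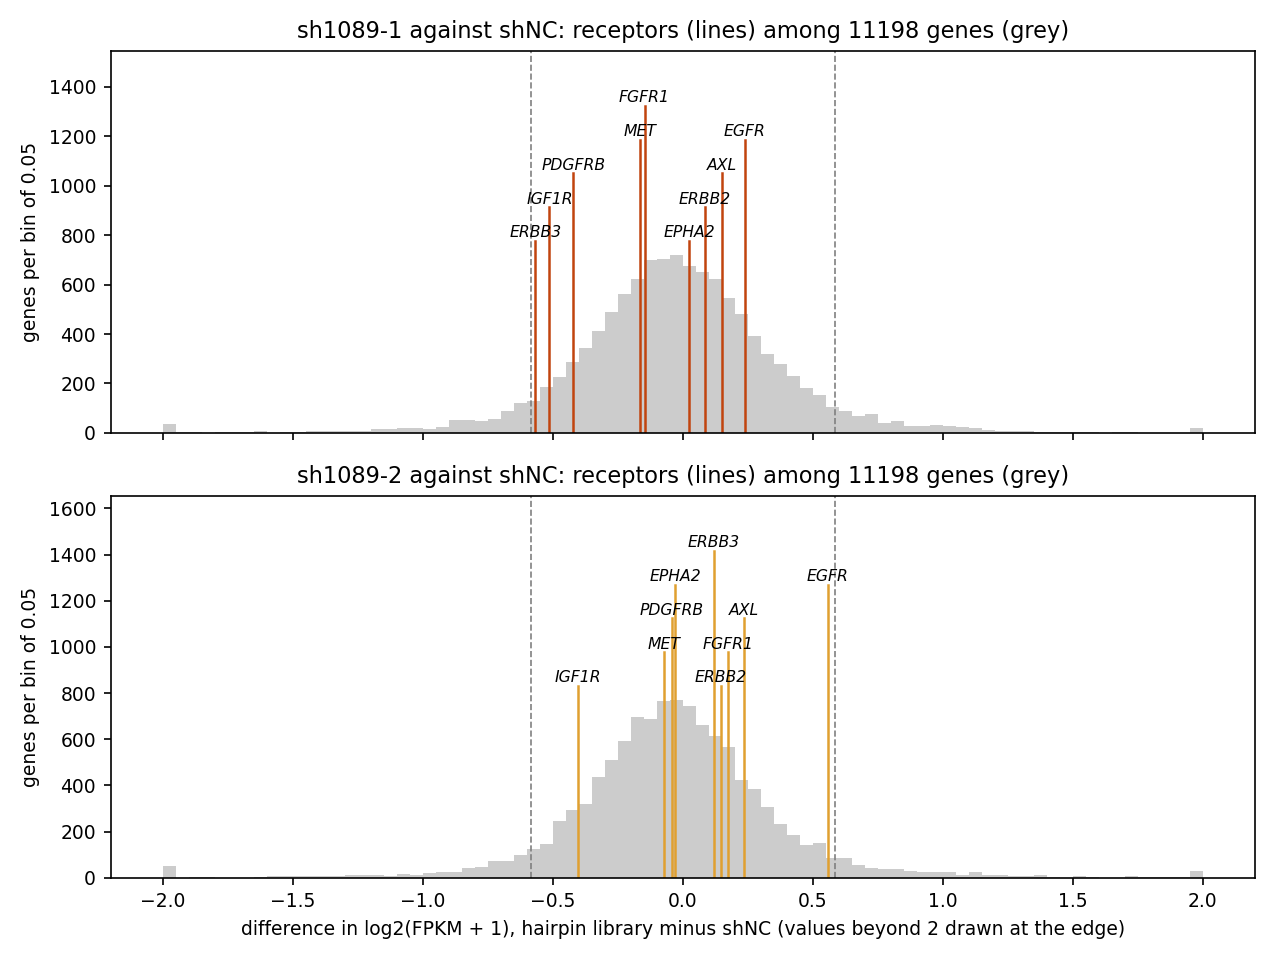
Differences in log2(FPKM + 1) from shNC for 11198 genes (grey bars, genes per bin of width 0.05) and for 9 receptors (coloured lines, whose heights only separate the names), with dashed lines at 1.5-fold. All receptors lie between the dashed lines in sh1089-1 (upper) and sh1089-2 (lower).

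Between the hairpin lines, ERBB3 was 1.72-fold higher in sh1089-2 than in sh1089-1 (1.53 to 1.93, on 724 and 480 reads), a difference of 0.69 in log2(FPKM + 1). It was the 1 receptor of 9 called higher on that scale, where 2.47% of genes were, and 0 were lower, where 2.3% were. PDGFRB was 1.54-fold higher by plain ratio (1.15 to 2.06), so that 2 receptors were higher by that rule, where 3.08% of protein-coding genes were, and 0 lower, where 2.45% were. FGFR1 was 1.29-fold higher (1.17 to 1.43) and EGFR 1.27-fold higher (1.18 to 1.38). In all, 8 of 9 receptors had a higher FPKM in sh1089-2 than in sh1089-1, EPHA2 having a ratio of 0.963 (0.922 to 1.005). The intervals of ERBB2 (0.967 to 1.13) and IGF1R (0.960 to 1.265) include 1 too. The median difference of the 9 receptors was 0.11, against −0.01 over all genes. ERBB3 and PDGFRB therefore differed more between the hairpins than sh1089-2 did from shNC. The share of all tested genes with a higher FPKM in sh1089-2 than in sh1089-1 was not counted. Of 16 other receptor tyrosine kinases measured, 11 were higher in sh1089-2 and 5 lower, with a median of 0.14. Of 9 co-receptors, 9 were higher and 0 lower, with a median of 0.23, so the shift was not particular to the 9 receptors.

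The 50 tested protein-coding genes nearest in gene order to each receptor span 2.8 Mb (ERBB3) to 34.8 Mb (PDGFRA), so they describe a stretch of the chromosome. Those around ERBB3 on chromosome 12 had a median difference of 0.09 in sh1089-1 (quartiles −0.12 and 0.29) and 0.10 in sh1089-2 (−0.12 and 0.24), beside −0.57 and 0.12 for ERBB3. Those around IGF1R on chromosome 15 had medians of −0.09 (quartiles −0.32 and 0.13) and −0.03 (−0.20 and 0.10), beside −0.51 and −0.40 for IGF1R. Those around EGFR on chromosome 7 had 0.08 (−0.07 and 0.27) and 0.07 (−0.14 and 0.22), beside 0.24 and 0.56 for EGFR. Over the 10 receptors such medians ran from −0.11 to 0.09 in sh1089-1 and from −0.12 to 0.10 in sh1089-2.

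Some receptor exons overlap other genes, and whether counting used the strand is not given in the sources used here. MIEN1 shares 571 bases with ERBB2 (5.53% of the ERBB2 exon length) on the other strand, and had 23.0 FPKM in sh1089-1, 21.2 FPKM in sh1089-2 and 27.2 FPKM in shNC. PGAP3 shares 194 bases with ERBB2, EGFR-AS1 186 with EGFR and AC011510.1 67 with AXL, all on the other strand. AC087623.1 shares 156 bases and LETM2 138 with FGFR1, also on the other strand. Reads from these stretches cannot be told apart without strand. AC034102.2 shares 31 bases with ERBB3 on the same strand.

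The genes whose pair of differences lay nearest to a receptor's were sought among 6114 protein-coding genes of at least 5 FPKM, over 3 libraries only, by Euclidean distance in log2(FPKM + 1). Nearest to IGF1R were RRAS (82.1, 87.8 and 117 FPKM in sh1089-1, sh1089-2 and shNC), NMNAT2 and JUNB, and 21 genes lay within a distance of 0.05. Nearest to EGFR were EVA1A (26.4, 33.0 and 22.1 FPKM), ACSS2 and WDR54, with 6 genes within that distance. Nearest to ERBB3 were MBNL2 (4.75, 8.19 and 7.48 FPKM), HEATR6 and TRIB1, with 3 genes within it.

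The ligands of EGFR and ERBB3 were next. EPGN, which encodes epigen, an EGFR ligand, had 2.72 FPKM in sh1089-1, 1.65 FPKM in sh1089-2 and 6.08 FPKM in shNC, on 47, 25 and 118 reads. It was 2.24-fold lower in sh1089-1 (1.58 to 3.21) and 3.69-fold lower in sh1089-2 (2.38 to 5.93). EREG, epiregulin, the most abundant EGFR ligand in each library, had 10.4 FPKM in sh1089-1, 10.01 FPKM in sh1089-2 and 14.2 FPKM in shNC, 1.37-fold (1.23 to 1.53) and 1.42-fold (1.27 to 1.59) lower. NRG1, a neuregulin bound by ERBB3, had 12.7, 15.8 and 18.4 FPKM, 1.45-fold lower in sh1089-1 (1.35 to 1.55) and 1.17-fold lower in sh1089-2 (1.09 to 1.25). The NRG1 level exceeded that of its receptor ERBB3 in each library.

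TGFA had 1.195 FPKM in sh1089-1, 0.900 FPKM in sh1089-2 and 1.84 FPKM in shNC, and AREG, amphiregulin, rested on 11, 20 and 34 reads. HBEGF had 9.13, 7.04 and 7.91 FPKM, with intervals for both ratios that include 1. EGF itself was listed at 0 in each library, and BTC, NRG2 and NRG4 stayed below 1 FPKM. Of 6 measured ERBB ligands, 0 were called higher and 2 lower in sh1089-1 (AREG and EPGN), and 0 higher and 1 lower in sh1089-2 (EPGN). Of all tested genes, 5.27% were called higher and 5.83% lower in sh1089-1, and 4.89% higher and 5.63% lower in sh1089-2. The medians of the 6 ligands were −0.46 in sh1089-1 and −0.36 in sh1089-2, against −0.03 and −0.04 over all tested genes.

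GAS6 and PROS1 stood on opposite sides of shNC in both hairpin libraries. GAS6, the vitamin K-dependent ligand of AXL, TYRO3 and MERTK, had 31.3 FPKM in sh1089-1, 35.5 FPKM in sh1089-2 and 18.3 FPKM in shNC. Both hairpin libraries were high, 1.71-fold (1.59 to 1.84) and 1.94-fold (1.80 to 2.09) above shNC. PROS1, protein S, a ligand of TYRO3 and MERTK, had 3.01 FPKM in sh1089-1, 3.49 FPKM in sh1089-2 and 6.47 FPKM in shNC, 2.152-fold (1.78 to 2.61) and 1.85-fold (1.53 to 2.24) lower. GAS6 was called higher in each comparison, as were 5.27% and 4.89% of all tested genes, and PROS1 lower, as were 5.83% and 5.63%. HGF, the MET ligand, was listed at 0 in each library.

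Of the PDGF and FGF ligands, FGF2, basic fibroblast growth factor, stood out. It had 13.7 FPKM in sh1089-1, 13.3 FPKM in sh1089-2 and 23.2 FPKM in shNC, 1.70-fold (1.56 to 1.84) and 1.75-fold (1.60 to 1.91) lower, and was the 1 called gene of 6 measured in each comparison, where 5.83% of all tested genes were lower in sh1089-1 and 5.63% in sh1089-2. FGF1 had 3.50, 2.62 and 2.10 FPKM, and FGF5 3.78, 4.09 and 3.63 FPKM. PDGFB, a ligand of PDGFRB, had 2.48 FPKM in sh1089-1, 4.45 FPKM in sh1089-2 and 3.13 FPKM in shNC. PDGFA had 3.01, 3.03 and 3.83 FPKM, and PDGFC 7.82, 7.84 and 7.62 FPKM. FGF7, FGF9, FGF19 and FGF21 were listed at 0.

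IGF2 was listed at 0 in each library and IGF1 rested on 2 reads in sh1089-2 alone, so neither IGF1R ligand was measurable. Of the ephrin-A ligands of EPHA2, 4 of 5 were measured and 0 were called in either comparison. EFNA1 had 2.23 FPKM in sh1089-1, 2.54 FPKM in sh1089-2 and 3.19 FPKM in shNC, EFNA3 had 2.16, 2.28 and 1.92 FPKM, EFNA4 3.51, 2.76 and 3.27 FPKM, and EFNA5 1.70, 2.35 and 1.85 FPKM. EPHA2 itself lay above 110 FPKM in each library.

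**Figure D5:**
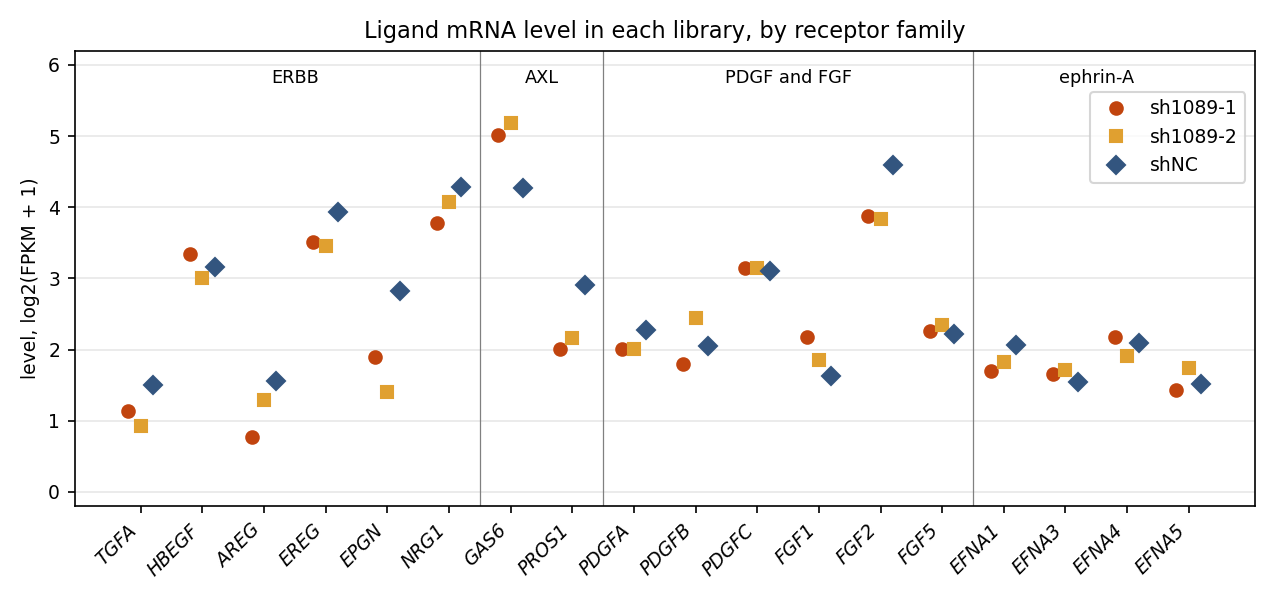
Level of each measured ligand as log2(FPKM + 1) in the sh1089-1, sh1089-2 and shNC libraries, 1 point per library, grouped by receptor family. EPGN, PROS1 and FGF2 lie lower, and GAS6 higher, in both hairpin libraries than in shNC.

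Ligands such as EREG, TGFA and NRG1 are made as membrane proteins and released by proteases. RHBDF2, which encodes iRhom2, a partner of the shedding protease ADAM17, had 4.79 FPKM in sh1089-1, 6.48 FPKM in sh1089-2 and 11.3 FPKM in shNC. It was 2.37-fold lower in sh1089-1 (2.08 to 2.71) and 1.75-fold lower in sh1089-2 (1.55 to 1.99). ADAM17 had 4.43, 5.24 and 8.11 FPKM, at differences of −0.75 and −0.55, and was called lower in sh1089-1 only. Of 11 measured shedding and processing genes, 1 was called higher and 3 lower in sh1089-1, and 1 higher and 2 lower in sh1089-2. Over all tested genes 5.27% were higher and 5.83% lower in sh1089-1, and 4.89% and 5.63% in sh1089-2. The higher one was PLAT, a plasminogen activator, with 31.2 FPKM in sh1089-1, 66.6 FPKM in sh1089-2 and 13.4 FPKM in shNC. PLAU, the urokinase gene, had 92.8, 112 and 105 FPKM. The others called lower were SPINT1 in sh1089-1 and SPINT2 in sh1089-2, inhibitors of HGF-activating proteases, on 26 and 42 reads. ADAM17, SPINT1 and SPINT2 were named after their values were seen. The other sheddases differed among themselves: ADAM10 had differences of −0.47 and −0.39, ADAM15 of 0.19 and 0.19 and ADAM9 of −0.06 and 0.04, also named after their values were seen. The list's medians were −0.20 in sh1089-1 and −0.02 in sh1089-2.

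Among 24 measured receptor inhibitors and phosphatases, 0 were called higher and 1 lower in each comparison, a share near the 5.83% and 5.63% of all tested genes called lower in sh1089-1 and sh1089-2. ERRFI1, also called MIG6, an inhibitor of the EGFR kinase, had 45.4 FPKM in sh1089-1, 54.8 FPKM in sh1089-2 and 76.4 FPKM in shNC. It was 1.68-fold lower in sh1089-1 (1.59 to 1.78), where it was called, and 1.39-fold lower in sh1089-2 (1.32 to 1.47). SPRY1, a Sprouty inhibitor of RAS-ERK signalling named after its values were seen, was called in sh1089-2, at a difference of −0.79. In sh1089-1, SPRY1 lay just inside the limit, at −0.5847. By plain ratio SPRY1 was 1.72-fold lower in sh1089-1 (1.32 to 2.26) and 2.13-fold lower in sh1089-2 (1.58 to 2.90). PTPRF, a receptor phosphatase, had 65.8, 73.4 and 68.9 FPKM. The list's medians were −0.18 and −0.15, with 19 and 18 of the 24 below 0, against −0.03 and −0.04 over all genes.

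Of 24 measured adaptors and proximal effectors, 0 were called higher, 1 lower in sh1089-1 (SOS2) and 2 lower in sh1089-2 (IRS1 and YES1), all 3 named after their values were seen. These counts lie near the 5.83% and 5.63% of all tested genes called lower. IRS1, an adaptor of IGF1R, had 14.2 FPKM in sh1089-1, 12.6 FPKM in sh1089-2 and 20.03 FPKM in shNC, at differences of −0.47 and −0.63. The more abundant IRS2, also named after its values were seen, had 27.8, 35.8 and 35.7 FPKM, at differences of −0.35 and 0.005. GRB2, the adaptor shared by most of these receptors, had 44.2, 44.2 and 42.2 FPKM, and SHC1 104, 104 and 122 FPKM. The medians were −0.19 and −0.11.

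Of 18 measured trafficking and ubiquitination genes, 0 were called in sh1089-1 and 2 were lower in sh1089-2, NEDD4 and STAM2, again named after their values were seen, where 5.83% of all tested genes were lower in sh1089-1 and 5.63% in sh1089-2. NEDD4, a ubiquitin ligase, had 8.97, 6.95 and 13.8 FPKM, and CAV1, caveolin, the most abundant of the list, 265, 278 and 248 FPKM. RAB7A, which directs late endosomes, had 91.7, 94.6 and 117 FPKM. The medians were −0.23 in sh1089-1 and −0.08 in sh1089-2.

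In the remaining groups EPHB1 was the 1 called gene, higher in each comparison, where 5.27% of all tested genes were in sh1089-1 and 4.89% in sh1089-2. It passed the filter on the mean only through the hairpin libraries, where it was higher, so its call is a description. This ephrin-B receptor was among 16 measured of 47 other receptor tyrosine kinases, and had 1.30 FPKM in sh1089-1, 1.79 FPKM in sh1089-2 and 0.376 FPKM in shNC, on 86, 104 and 28 reads. It was 3.45-fold (2.23 to 5.49) and 4.75-fold (3.11 to 7.496) higher. FGFR4 had 14.4, 17.0 and 13.8 FPKM, and EPHB4 15.8, 19.5 and 15.6 FPKM. FGFR2 was listed at 0. The medians of these 16 were 0.04 and −0.02. Of 9 measured co-receptors 0 were called: CD44, a co-receptor of MET, had 87.0, 105 and 115 FPKM, and SDC1, a heparan sulfate carrier, 79.5, 81.4 and 60.7 FPKM, with medians of −0.23 and 0.01. Of 8 membrane and folding partners 0 were called, with HSP90AB1, the chaperone gene, at 890, 903 and 872 FPKM, HSP90AA1 at 264, 203 and 194 FPKM, and medians of 0.09 and 0.06.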

How the data were processed

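Strand-specific libraries of enriched mRNA from Trizol-extracted total RNA were sequenced, per the labels' protocols. The deposited table holds FPKM as the authors computed it, for 22464 Ensembl identifiers in 3 libraries. FastQC, StringTie and GRCh38 are named in the submitters' processing notes. No source used here gives the aligner, the annotation release or the use of strand. Symbols matched 22375 identifiers.

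Whole reads were recovered from the FPKM steps with GENCODE 29 exon lengths: a whole gene length that made all 3 values whole reads was found for 100% of 19219 genes above 0, to the precision of the printed decimals and never more than 0.05 reads off, and was equal to the GENCODE length for 62.0%. Where several lengths were possible the one nearest to GENCODE was taken, so the share of whole values is partly built in. Recovered reads gave the depth and the 95% Clopper-Pearson intervals, which cover counting error only since no molecular identifiers are named. No count test was run.

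Differences are hairpin minus shNC in log2(FPKM + 1), which understates the change of low genes, and folds printed for single genes are plain FPKM ratios. A gene was called at 1.5-fold in log2(FPKM + 1) if its mean was at least 1 FPKM. All 10 receptors and all ligands above that mean are named; from each other list, the members called the same way in both comparisons and the 2 most abundant. For the 3 receptors with the largest mean differences, the 3 nearest genes are named. The members and lists were chosen with earlier results of these data known. NRG3, KDR, KL, ALB, CD3E and LINC01089 were not analysed here. Analyses used Python 3.11.15, pandas 2.3.3 and scipy 1.17.1.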

Additional observations from a re-analysis of the deposited data

Results flagged for a closer look

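Among the receptors and the list genes chosen for naming as given above, 7 above the filter stood on opposite sides of shNC in the hairpin libraries. Their ratio between the hairpin libraries also had a counting interval that excluded 1. IRS2, named after its values were seen, met both conditions too, with a ratio of 1.287 (1.215 to 1.365). The genes nearest to a receptor in pattern were not screened. How many of all tested genes meet both conditions was not counted, so no background share stands beside these 7. With 1 library per line the difference between hairpins was not tested, and the ligands, PTPRF, PLAU and IRS2 were not recomputed under other scalings. ERBB3 had a ratio of 1.72 between sh1089-2 and sh1089-1 (1.53 to 1.93), and FGFR1 one of 1.29 (1.17 to 1.43). PDGFB, a ligand of PDGFRB, had a ratio of 1.79 (1.37 to 2.37), on 140 and 89 reads. EFNA5 had a ratio of 1.39 (1.04 to 1.84), PLAU one of 1.21 (1.14 to 1.27), PTPRF one of 1.11 (1.08 to 1.15) and HBEGF one of 0.771 (0.633 to 0.938). Against shNC itself, the intervals of both hairpin libraries included 1 for HBEGF and EFNA5, as did that of sh1089-2 for ERBB3 (0.992 to 1.21) and that of sh1089-1 for PDGFB (0.598 to 1.05).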

How the results depend on the processing

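The median differences of the receptors were −0.15 in sh1089-1 and 0.12 in sh1089-2, and the one alternative that moved them past the counting error was a mean of at least 5 FPKM, which leaves 7 receptors and gave 0.0255 in sh1089-1; with no filter they were −0.06 and 0.05. Where no receptor was called in log2(FPKM + 1), a pseudocount of 0.1 and the plain ratio, which was added after seeing the data, each called 3 lower in sh1089-1 (ERBB3, IGF1R and PDGFRB) and 1 higher in sh1089-2 (EGFR). Calls were more frequent among all 11198 genes too: 9.75% and 10.3% were lower in sh1089-1, and 6.97% and 7.27% higher in sh1089-2. Rescaling to TPM called 1 lower in sh1089-1 (ERBB3), where 8.0% of all genes were, and 1 higher in sh1089-2 (EGFR), where 7.93% were. Median-ratio scaling called 1 higher in sh1089-2 (EGFR), where 5.51% of all genes were. A smaller pseudocount shrinks low values less by construction, and the same pseudocount weighs differently on TPM than on FPKM. The cause under the scalings was not tested. No filter, a mean of at least 5 FPKM, a fold of 2 and the limit to protein-coding genes with at least 100 reads, also added after seeing the data, left all counts at 0. Of 72 receptor differences recomputed under 4 alternatives, 70 moved by less than their counting error. The other 2 were AXL and EPHA2 in sh1089-2 under TPM, at 0.31 and 0.04. The alternatives reuse the same reads, and counting error is wide for genes on few reads, so these counts do not measure robustness. PDGFRB in sh1089-1 went from −0.42 to −0.68 by plain ratio and is among the 70. The sign differed for EPHA2 in sh1089-2 under TPM and median-ratio scaling and for PDGFRB in sh1089-2 under TPM. No paired analysis was possible because each group is 1 library. Depth limits PDGFRA, AREG, EPGN, TGFA, SPINT1, SPINT2, EPHB1, EFNA1, EFNA3 and EFNA4, each under 50 reads in at least 1 library.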
